A study of Mus musculus with 9 samples.

Results

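Splenic marginal zone (MZ) B cells were compared with follicular (FO) B cells that carry high surface IgD, by RNA-seq of 3 libraries per subset. The members are all rows of the deposited table with a mean of at least 0.5 FPKM (fragment counts scaled to transcript length and library size) over the 9 libraries of the study, which were 11597 of 24459 rows. The 6 MZ and FO libraries are described here, and the third subset of the study, called BDL, entered only the filter and the estimate of the spread. The mice were naive and 8 to 10 weeks old. The strain is C57/BL6 by the labels and B10.PL by the methods of the study, a conflict that was not tested. Each sort pooled the spleens of 5 mice. The library names carry 3 different dates, read here as sort dates, and each date has 1 MZ and 1 FO library, numbered alike as replicates 1 to 3. MZ B cells were sorted as B220+, IgM-high, CD21-high, CD23- and CD93-. FO B cells were sorted as B220+, IgM-intermediate, CD21-intermediate, CD23+, CD93- and IgD-high. The labels and methods name no transgene, deletion or treatment for these mice. Genes of the sort markers that part the gates, such as Cr2 (CD21) and Fcer2a (CD23), differ by construction and are named only as a check of the labels. Cd93 codes for a marker that both gates exclude. The genes of the IgD and IgM heavy chains, Ighd and Ighm, have no row in the table. The depth estimated from the steps between low values was 54100000 to 64500000 mapped fragments per library.

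MZ B cells sit at the border of the white pulp, where they meet blood-borne antigen and give rapid antibody responses that do not need T cells, whereas FO B cells recirculate through the follicles of spleen and lymph nodes and enter germinal centres with T cell help. Formation of MZ B cells needs Notch2 signalling, and their place in the marginal zone depends on sphingosine 1-phosphate receptors and integrins, which oppose the pull of the follicular chemokine CXCL13 through CXCR5. FO B cells also respond to the chemokines of the T cell zone through CCR7.

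A gene was called when its difference between the subsets had an adjusted p under 0.05 (limma, Benjamini-Hochberg over all rows tested) and was at least 2-fold on log2(FPKM + 0.1). By this rule 642 rows were higher in MZ B cells, or 5.54% of those tested, and 393 were higher in FO B cells, or 3.39%, which makes 8.92% in either direction. On the adjusted p alone, 14.3% of the rows were higher in MZ and 12.8% were higher in FO B cells. Counts of list members given below are to be set beside these shares of all rows. The FPKM of the 3 MZ libraries all lay above those of the 3 FO libraries in 23.6% of the rows, and all lay below them in 22.5%. The median log2 difference of all rows tested was -0.0087. The FPKM of all rows in a library summed to 466241 to 517208 in MZ and 446033 to 461648 in FO B cells, which the main fit did not adjust for. Since these are bulk samples, fewer cells of a type and less RNA per cell cannot be told apart, and a gene may differ in all cells of a subset or in a few.

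**Figure D1:**
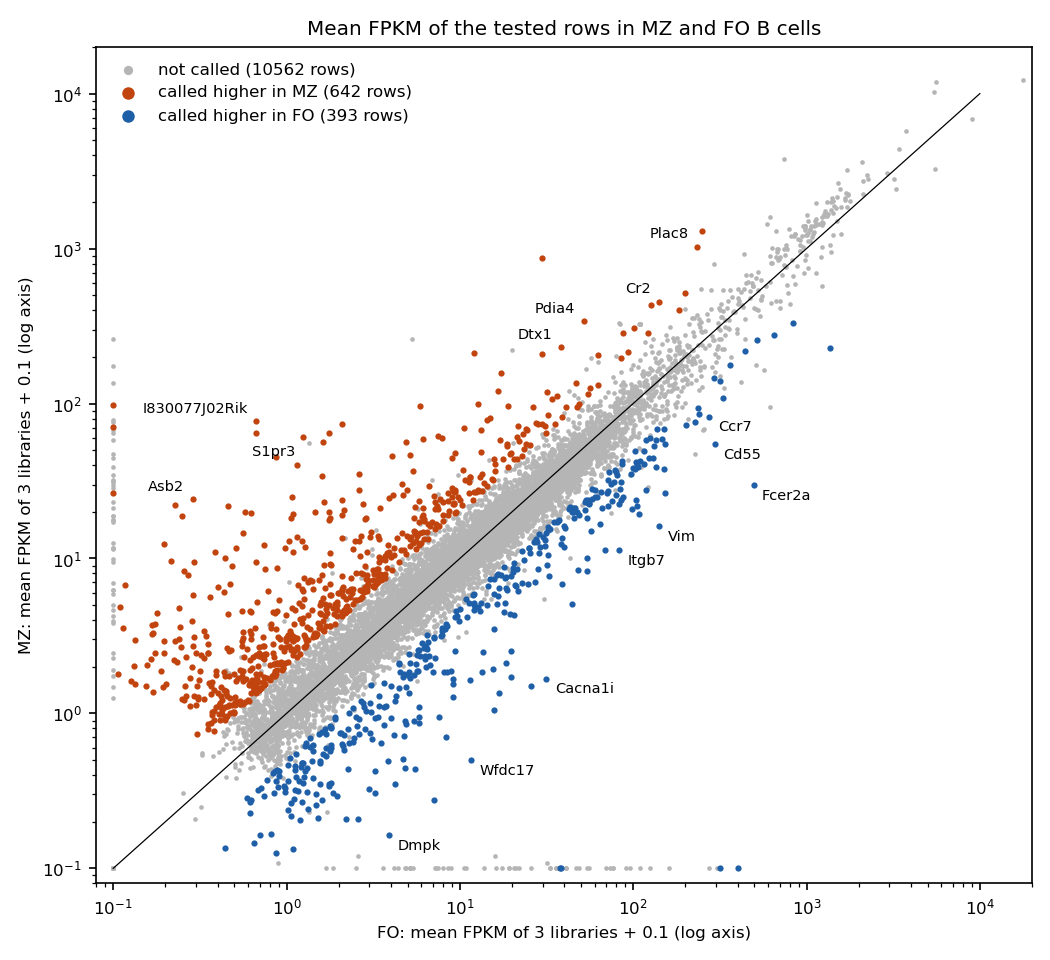
Mean FPKM of each tested row in FO (x axis) and MZ B cells (y axis), with 0.1 added and both axes on a log scale; orange points are the 642 rows called higher in MZ, blue points the 393 called higher in FO, and grey points the rest, and the line marks equal values. Most rows lie along the line, and the rows far above it outnumber those far below it; points on the edges are mostly rows of small RNAs at 0 in one subset.

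The excess on the MZ side came with the size of the difference. At least a 4-fold difference (2 on the log2 scale) was seen in 206 of the rows higher in MZ and in 93 of those higher in FO B cells, and at least an 8-fold difference (3 on the log2 scale) in 104 and 28. Many of the MZ genes were close to silent in FO B cells, since 281 of the 642 had a mean under 1 FPKM there. Of the 393 FO genes, 142 had a mean under 1 FPKM in MZ B cells, and 122 were still at 10 FPKM or more in them. Of the rows with a mean under 1 FPKM over the 6 libraries, 11.5% were called higher in MZ and 8.44% higher in FO B cells. A row near silent in a subset was tested only if other libraries brought its mean to 0.5 FPKM. The counts and shares of low rows thus depend in part on that minimum. Of the rows at 100 FPKM or more, 2.93% were higher in MZ and 3.79% in FO B cells.

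Rows of microRNAs and other small RNAs, of which 9 were called in each direction and some reach larger differences from values at 0, are left aside in what follows. The other genes with the largest differences on the MZ side included receptors for chemokines, semaphorins and lipid mediators and a cytokine. I830077J02Rik, a gene of chromosome 3 without an assigned function here (chr3:105728809-105735582 in mm9, minus strand), had 74.9, 69.4 and 86.6 FPKM in MZ replicates 1 to 3 and 0.791, 0.459 and 0.463 FPKM in FO replicates 1 to 3. Ackr3, an atypical receptor that takes up the chemokine CXCL12, had 47.2, 63.6 and 81.2 FPKM in MZ and 0.294, 0.846 and 0.558 FPKM in FO B cells. Il10, the anti-inflammatory cytokine (chr1:132916422-132921551), had 17.96, 22.05 and 16.5 FPKM in MZ and 0.144, 0.165 and 0.145 FPKM in FO B cells. In all of them the lowest MZ library was more than 50 times the highest FO library. The log2 differences were 6.87 ± 0.21 (standard error) for I830077J02Rik, 6.64 ± 0.36 for Ackr3 and 6.23 ± 0.23 for Il10, with adjusted p-values of 6.89e-07, 6.42e-06 and 1.05e-06. Asb2, an adaptor of a ubiquitin ligase that acts on filamins, averaged 24.1 FPKM in MZ and 0.188 FPKM in FO B cells. Means in MZ and FO B cells were 45.1 and 0.774 FPKM for Plxnd1, a semaphorin receptor, 21.8 and 0.360 FPKM for Rap1gap, which switches off the adhesion GTPase Rap1, and 12.3 and 0.0959 FPKM for the protease inhibitor Serpine2. Tsga13, S1pr3, Lipc (hepatic lipase) and Ube2e2 (a ubiquitin-conjugating enzyme) were also among the 12 genes with the largest log2 difference, small RNAs aside, down to 5.42 for Ube2e2, and none of the 12 overlapped between the subsets.

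On the FO side, with small RNAs again left aside, the largest differences included a calcium channel, a cyclic nucleotide phosphodiesterase and several lowly expressed genes. Cacna1i, a T-type calcium channel subunit (chr15:80117668-80228709), had 30.8, 29.9 and 33.8 FPKM in FO replicates 1 to 3 and 1.4, 2.09 and 1.24 FPKM in MZ replicates 1 to 3. Pde2a, a phosphodiesterase that cGMP stimulates, had 26.1, 26.1 and 24.6 FPKM in FO and 1.14, 1.93 and 1.14 FPKM in MZ B cells. Wfdc17, a small secreted protein of the whey acidic protein family, had 10.2, 11.4 and 12.8 FPKM in FO and 0.388, 0.611 and 0.198 FPKM in MZ B cells. The FO libraries were within 1.3-fold of each other for all of these and far from any MZ library. The log2 differences, MZ minus FO, were -4.27 ± 0.17 for Cacna1i, -4.13 ± 0.18 for Pde2a and -4.62 ± 0.27 for Wfdc17, with adjusted p-values of 1.34e-06, 2.16e-06 and 1.10e-05. Dmwd and Dmpk, the latter a protein kinase of muscle, are neighbours on chromosome 7 (chr7:19661598-19668125 and chr7:19669198-19679170). They averaged 6.95 and 3.81 FPKM in FO against 0.176 and 0.0630 FPKM in MZ B cells, and one MZ library had Dmpk at 0. Gad1, the enzyme that makes GABA from glutamate, averaged 4.11 FPKM in FO and 0.252 FPKM in MZ B cells. Cdkl1, Slc4a11, Fam101b, Kctd14 and Gm11346 also differed by more than 3.5 on the log2 scale, and Fcer2a, which codes for the gate marker CD23, averaged 496 FPKM in FO and 29.6 FPKM in MZ B cells.

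Marker genes went with the labels. Of 12 MZ markers 9 were called higher in MZ B cells, among them the lipid scavenger receptor Cd36 (69.4 against 10.5 FPKM), the tetraspanin Cd9 (73.8 against 1.98 FPKM), Plac8 (1029 against 233 FPKM) and the gate gene Cr2, while Lgals1 was higher in FO B cells (7.83 against 3.296 FPKM). Of 10 FO markers 7, with the gate gene Fcer2a, were called higher in FO B cells. Of 12 pan-B cell genes none was called, and their median log2 difference was -0.05. Some markers of other B cell stages differed between the subsets. Of 4 transitional B cell markers tested 3 were called higher in FO B cells (Vpreb3, Sox4 and Cd93). Myb, the other one tested, averaged 2.61 FPKM in MZ and 1.24 FPKM in FO B cells and was not called. Another 4 of the 8 list members lay under the minimum. Cd93, whose product both gates exclude, averaged 3.90 FPKM in FO and 1.41 FPKM in MZ B cells. The summed FPKM of the list was 23.1 to 29.3 in MZ and 97.4 to 118 FPKM in FO B cells, mostly Vpreb3, a VpreB family gene (104 against 21.6 FPKM). Of 6 B1 cell markers, Cd5, Itgam and Bhlhe41 were called higher in MZ and Spn higher in FO B cells, and the list summed to 9.905 to 17.9 in MZ and 6.69 to 8.396 FPKM in FO B cells. The part of such cells in the differences was not tested. Markers of cells outside the B lineage were low in both subsets. The summed FPKM of 11 T cell markers was 2.60 to 5.44 in MZ and 3.14 to 5.05 in FO B cells, with Bcl11b under 0.1 FPKM in every library. The summed FPKM of 13 macrophage and monocyte markers was 16.7 to 23.8 in MZ and 9.45 to 12.7 in FO B cells, mostly Cd68, with Cd209b and Siglec1 under 0.1 FPKM throughout. Spic, a macrophage transcription factor also known from B cells, was the called member (3.43 against 0.767 FPKM). Of the NK cell markers, perforin (Prf1) was called higher in MZ B cells (7.17 against 1.44 FPKM), while Nkg7 and Gzma were not called. The part of such cells in the differences described here was not tested.

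The libraries of one date resembled each other in some genes. Xist was at 141, 50.1 and 0.0513 FPKM in MZ replicates 1 to 3 and 66.1, 22.5 and 0.0727 FPKM in FO replicates 1 to 3, and the Y-linked Ddx3y was at 0.0165, 23.9 and 33.9 FPKM and 0.0250, 17.9 and 23.9 FPKM. The pools of the 3 dates thus differed in the sex of the mice, in the same order in both subsets. Within a date the levels still differed. Xist in replicates 1 and 2, and Ddx3y in replicates 2 and 3, were higher in the MZ library. The neutrophil gene S100a8 was at 2.82 and 2.28 FPKM in replicate 2 of both subsets and under 0.2 FPKM in the others.

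In the Notch pathway, target genes were among those called, while the receptor Notch2 was not. Of 32 genes tested, 4 were called higher in MZ and 2 higher in FO B cells. These are 12.5% and 6.25%, against 5.54% and 3.39% of all rows. The median log2 difference was 0.09, against -0.0087 for all rows. Dtx1, a Notch target and a ubiquitin ligase of the pathway (chr5:121130211-121161936), had 210.2, 214 and 271 FPKM in MZ and 37.5, 41.7 and 35.4 FPKM in FO B cells. Hes5, a transcriptional repressor and direct target, had 3.56, 2.69 and 4.19 FPKM in MZ and 0.549, 0.617 and 0.507 FPKM in FO B cells. Hes1, another repressor of this family, had 41.2, 33.8 and 66.4 FPKM in MZ and 18.4, 19.1 and 20.5 FPKM in FO B cells. The subsets did not overlap in any of these targets, though MZ replicate 3 stood above the other MZ libraries for Hes1. The log2 differences were 2.59 ± 0.12 for Dtx1, 2.43 ± 0.19 for Hes5 and 1.22 ± 0.28 for Hes1, with adjusted p-values of 2.53e-06, 4.73e-05 and 0.0122, and Hes1 lost the call without MZ replicate 3 (0.95). Here and for genes named later, the value in brackets after a library left out is the log2 difference without it. Dtx4, a relative of Dtx1, averaged 3.68 FPKM in MZ and 1.01 FPKM in FO B cells. The receptor Notch2 itself had 50.3, 52.8 and 65.8 FPKM in MZ and 63.1, 56.4 and 64.8 FPKM in FO B cells, which overlapped, with a log2 difference of -0.13 ± 0.12 (adjusted p = 0.456). Higher in FO B cells were Lfng, a glycosyltransferase that modifies Notch receptors (18.1 against 5.07 FPKM), and Maml3, a coactivator of the Notch complex (2.76 against 0.933 FPKM).

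The 250 bases before the start of 4 of these genes are shown because Notch acts through the DNA-binding protein RBPJ, whose core site is TGGGAA. The sequences are from RefSeq (GRCm38.p6), each on the strand of its gene, with TGGGAA or its reverse complement TTCCCA in capitals. In order they lie at chr5:120711670-120711919 (minus strand), chr4:154960673-154960922 (plus), chr5:140607091-140607340 (plus) and chr3:52105007-52105256 (minus).
Dtx1: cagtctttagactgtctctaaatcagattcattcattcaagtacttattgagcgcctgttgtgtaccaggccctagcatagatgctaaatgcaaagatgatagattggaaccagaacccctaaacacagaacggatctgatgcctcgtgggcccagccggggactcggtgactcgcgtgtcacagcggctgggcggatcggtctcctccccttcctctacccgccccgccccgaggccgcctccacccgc
Hes5: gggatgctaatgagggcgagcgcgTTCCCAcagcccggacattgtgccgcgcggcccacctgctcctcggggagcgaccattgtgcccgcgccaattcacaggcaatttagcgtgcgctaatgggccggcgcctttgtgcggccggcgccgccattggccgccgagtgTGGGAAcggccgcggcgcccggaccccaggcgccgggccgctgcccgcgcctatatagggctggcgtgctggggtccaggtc
Lfng: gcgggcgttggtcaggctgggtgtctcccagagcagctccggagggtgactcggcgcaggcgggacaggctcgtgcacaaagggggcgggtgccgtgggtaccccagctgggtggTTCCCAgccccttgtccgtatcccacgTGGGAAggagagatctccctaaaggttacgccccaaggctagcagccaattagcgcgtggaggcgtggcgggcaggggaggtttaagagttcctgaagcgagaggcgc
Maml3: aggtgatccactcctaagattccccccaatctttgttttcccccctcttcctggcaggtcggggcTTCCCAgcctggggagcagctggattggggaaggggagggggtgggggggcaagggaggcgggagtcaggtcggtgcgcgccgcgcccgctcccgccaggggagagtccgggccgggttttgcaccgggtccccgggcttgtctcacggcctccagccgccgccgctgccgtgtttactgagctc
The stretch of Hes5 held matches starting 226 and 82 bases before the gene start, that of Lfng 135 and 108 bases before it and that of Maml3 185 bases before it, while these letters do not occur in the stretch of Dtx1. Genes of both directions thus held matches. Promoters of 300 bases (250 before to 50 after the start) were searched on both strands. TGGGAA occurred in 27.1% of 623 promoters of genes called higher in MZ and in 20.7% of 363 of genes called higher in FO. It occurred in 22.7% of the 10580 promoters of tested genes. CCACCC, a core site of Kruppel-like factors, occurred in 36.9%, 45.2% and 35.7% of the same sets, and the E-box CACGTG, to which MYC binds, in 6.74%, 9.37% and 10.3%. These promoters belong to 462, 277 and 8388 genes, so that some tested genes have none here and some have several. Over all 32851 promoters, of genes tested or not, TGGGAA occurred in 25.6%. Such matches describe letters and not binding.

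Receptors that place B cells in the spleen were split between the subsets. Of 12 chemokine receptors tested 3 were called higher in MZ and 3 higher in FO B cells, which is 25% in each direction against 5.54% and 3.39% of all rows. Ccr7, the receptor for the chemokines of the T cell zone, had 63.7, 108 and 74.9 FPKM in MZ and 251, 323 and 251 FPKM in FO B cells. Cxcr4, the receptor for CXCL12, had 61.1, 99.4 and 66.9 FPKM in MZ and 198, 265 and 217 FPKM in FO B cells. Replicate 2 was the highest in both subsets for both receptors, and the subsets did not overlap. They differed on the log2 scale by -1.77 ± 0.23 for Ccr7 and -1.60 ± 0.22 for Cxcr4 (adjusted p = 6.73e-04 and 0.00101). Ccr6 was also higher in FO B cells (85.8 against 40.9 FPKM). The receptors higher in MZ B cells were both atypical scavengers, Ackr3 and Ackr2 (39.7 against 1.05 FPKM), and the inflammatory receptor Ccr1, which had 12.3, 12.7 and 13.4 FPKM in MZ and 0.791, 1.004 and 1.002 FPKM in FO B cells. Cxcr5, the receptor for the follicular chemokine CXCL13, had 62.1, 74.97 and 90.9 FPKM in MZ and 83.4, 97.4 and 87.8 FPKM in FO B cells, which overlapped (log2 difference -0.25 ± 0.17, adjusted p = 0.323).

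Among 18 receptors and handling genes of sphingosine 1-phosphate, oxysterols and related lipids, 4 were called higher in MZ and 2 higher in FO B cells. S1pr3, a sphingosine 1-phosphate receptor (chr13:51503987-51518166) had 61.5, 41.6 and 78.5 FPKM in MZ and 1.16, 1.27 and 1.02 FPKM in FO B cells, with a log2 difference of 5.56 ± 0.21 (adjusted p = 1.05e-06). S1pr1, the receptor that holds MZ B cells in the marginal zone, had 155, 136 and 190.3 FPKM in MZ and 72.8, 99.9 and 81.5 FPKM in FO B cells. These values did not overlap, but the log2 difference of 0.92 ± 0.16 (adjusted p = 0.00395) missed the 2-fold limit. The lysophospholipid receptors Gpr55 (2.61 against 0.188 FPKM), Gpr34 (4.33 against 0.758 FPKM) and Lpar6 (8.61 against 3.69 FPKM) were higher in MZ B cells. S1pr4 had 26.5, 13.98 and 27.8 FPKM in FO and 7.27, 5.15 and 8.26 FPKM in MZ B cells, and Spns2, an exporter of sphingosine 1-phosphate, had 18.8, 21.4 and 22.1 FPKM in FO and 5.78, 6.84 and 7.18 FPKM in MZ B cells. Both were called higher in FO B cells.

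Of 9 RGS genes tested, which shorten signals of chemokine and lipid receptors, 3 were called higher in MZ and none in FO B cells. On the adjusted p alone 4 were higher in MZ and 1 in FO B cells, Rgs14 (log2 difference -0.92, adjusted p = 0.00191). These are 44.4% and 11.1%, against 14.3% and 12.8% of all rows. Rgs10 had 55.3, 49.5 and 65.1 FPKM in MZ and 1.56, 1.55 and 1.47 FPKM in FO B cells, with the libraries of a subset within 1.4-fold of each other and a log2 difference of 5.12 ± 0.12 (adjusted p = 1.88e-07). Rgs3 (12.2 against 3.75 FPKM) and Rgs18 (8.28 against 3.06 FPKM) followed. Rgs1 and Rgs2, which are induced by activation, averaged 12.2 and 80.1 FPKM in MZ and 11.98 and 70.6 FPKM in FO B cells and were not called.

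Semaphorin receptors and ligands, which guide cells by repulsion or adhesion, gave calls towards MZ B cells. Of 10 tested, 5 were called higher in MZ B cells and none in FO B cells, with a median log2 difference of 0.81. Plxnd1 (chr6:115904829-115945023) had 39.7, 42.1 and 53.7 FPKM in MZ and 0.769, 0.693 and 0.859 FPKM in FO B cells. Its co-receptor family member Nrp2 had 8.96, 8.58 and 12.5 FPKM in MZ and 0.353, 0.332 and 0.334 FPKM in FO B cells. Sema7a, a membrane-anchored semaphorin that binds integrins, had 50.5, 68.1 and 67.6 FPKM in MZ and 6.995, 8.41 and 6.8 FPKM in FO B cells. No MZ library lay within 5-fold of an FO library in these genes, and the log2 differences were 5.69 ± 0.12, 4.50 ± 0.16 and 3.04 ± 0.19 (adjusted p = 1.88e-07, 8.55e-07 and 1.36e-05). Plxnc1, the receptor of Sema7a, averaged 33.6 against 11.3 FPKM and Sema4b 64.8 against 31.2 FPKM. Sema4b fell below the 2-fold limit without FO replicate 2 (0.93), MZ replicate 1 (0.99) or MZ replicate 3 (0.84). The list median fell to 0.021 when rows of any level were counted, since 16 of the 26 family members with a row lie under the minimum.

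Of 23 adhesion molecules tested, 5 were called higher in FO B cells and 2 in MZ B cells. On the adjusted p alone 7 were higher in FO and 6 in MZ B cells. The latter are 30.4% and 26.1%, against 12.8% and 14.3% of all rows. The integrin chain Itgb7, part of the receptor for gut addressins, had 86.5, 72.99 and 88.8 FPKM in FO and 10.04, 12.1 and 11.4 FPKM in MZ B cells. Itga6, a laminin-binding chain, had 4.75, 4.74 and 4.81 FPKM in FO and 0.728, 0.795 and 0.731 FPKM in MZ B cells. Both were well apart between the subsets, with log2 differences of -2.88 ± 0.12 and -2.52 ± 0.13 (adjusted p = 1.77e-06 and 5.72e-06). Itgb3 (4.95 against 1.68 FPKM) and Icam2 (52.96 against 23.2 FPKM) were also higher in FO B cells. Itgb1, which pairs with many alpha chains, was higher in MZ B cells (20.9 against 7.38 FPKM), as was the low Itgam (1.797 against 0.787 FPKM), which missed the limit without FO replicate 3 (0.99). Itgal, the alpha chain of LFA-1 that holds MZ B cells in place, had 65.2, 66.2 and 78.02 FPKM in MZ and 47.2, 42.5 and 49.9 FPKM in FO B cells, a difference of 0.58 ± 0.10 on the log2 scale (adjusted p = 0.00298) that stayed under 2-fold.

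**Figure D2:**
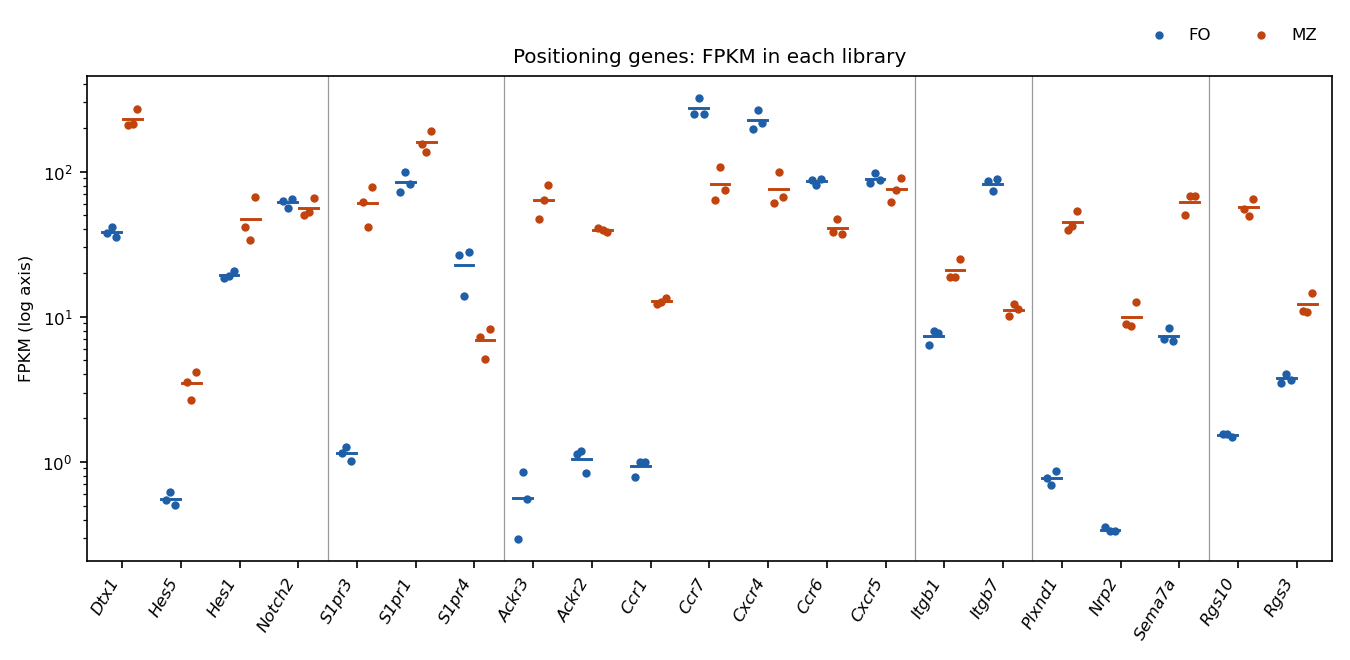
FPKM (log axis) of genes of the Notch pathway, sphingosine 1-phosphate receptors, chemokine receptors, adhesion molecules, semaphorin genes and RGS genes, from left to right, in the 3 FO (blue) and 3 MZ (orange) libraries; each dot is a library and each bar the mean of 3. Ccr7, Cxcr4, Ccr6, Itgb7 and S1pr4 are lower in MZ B cells, Notch2 and Cxcr5 overlap, and the others are higher in MZ B cells.

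Of 54 myosins and actin regulators tested, 4 were called higher in FO B cells and 3 in MZ B cells, and on the adjusted p alone 20 were higher in FO against 4 in MZ B cells, or 37.0% where all rows gave 12.8%. The median log2 difference was -0.24. Vimentin (Vim), the intermediate filament, had 140.1, 141 and 142 FPKM in FO and 16.2, 18.1 and 13.7 FPKM in MZ B cells, a log2 difference of -3.14 ± 0.13 (adjusted p = 1.54e-06). The actin crosslinker filamin A (Flna) averaged 130.5 against 44.6 FPKM, the calponin Cnn3 115 against 40.8 FPKM and Tagln2 77.6 against 30.8 FPKM. The MZ side held Myof, a ferlin of membrane repair (64.6 against 1.65 FPKM), the minus-end motor Myo6 (1.78 against 0.292 FPKM) and the low Actn1 (0.869 against 0.352 FPKM), whose call was lost without FO replicate 3 (0.95) or MZ replicate 1 (0.97). Myo10, a myosin outside the list, was also called higher in MZ B cells (1.17 against 0.207 FPKM). S100a10, a partner of annexin A2, was higher in FO B cells too (123 against 44.3 FPKM).

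**Figure D3:**
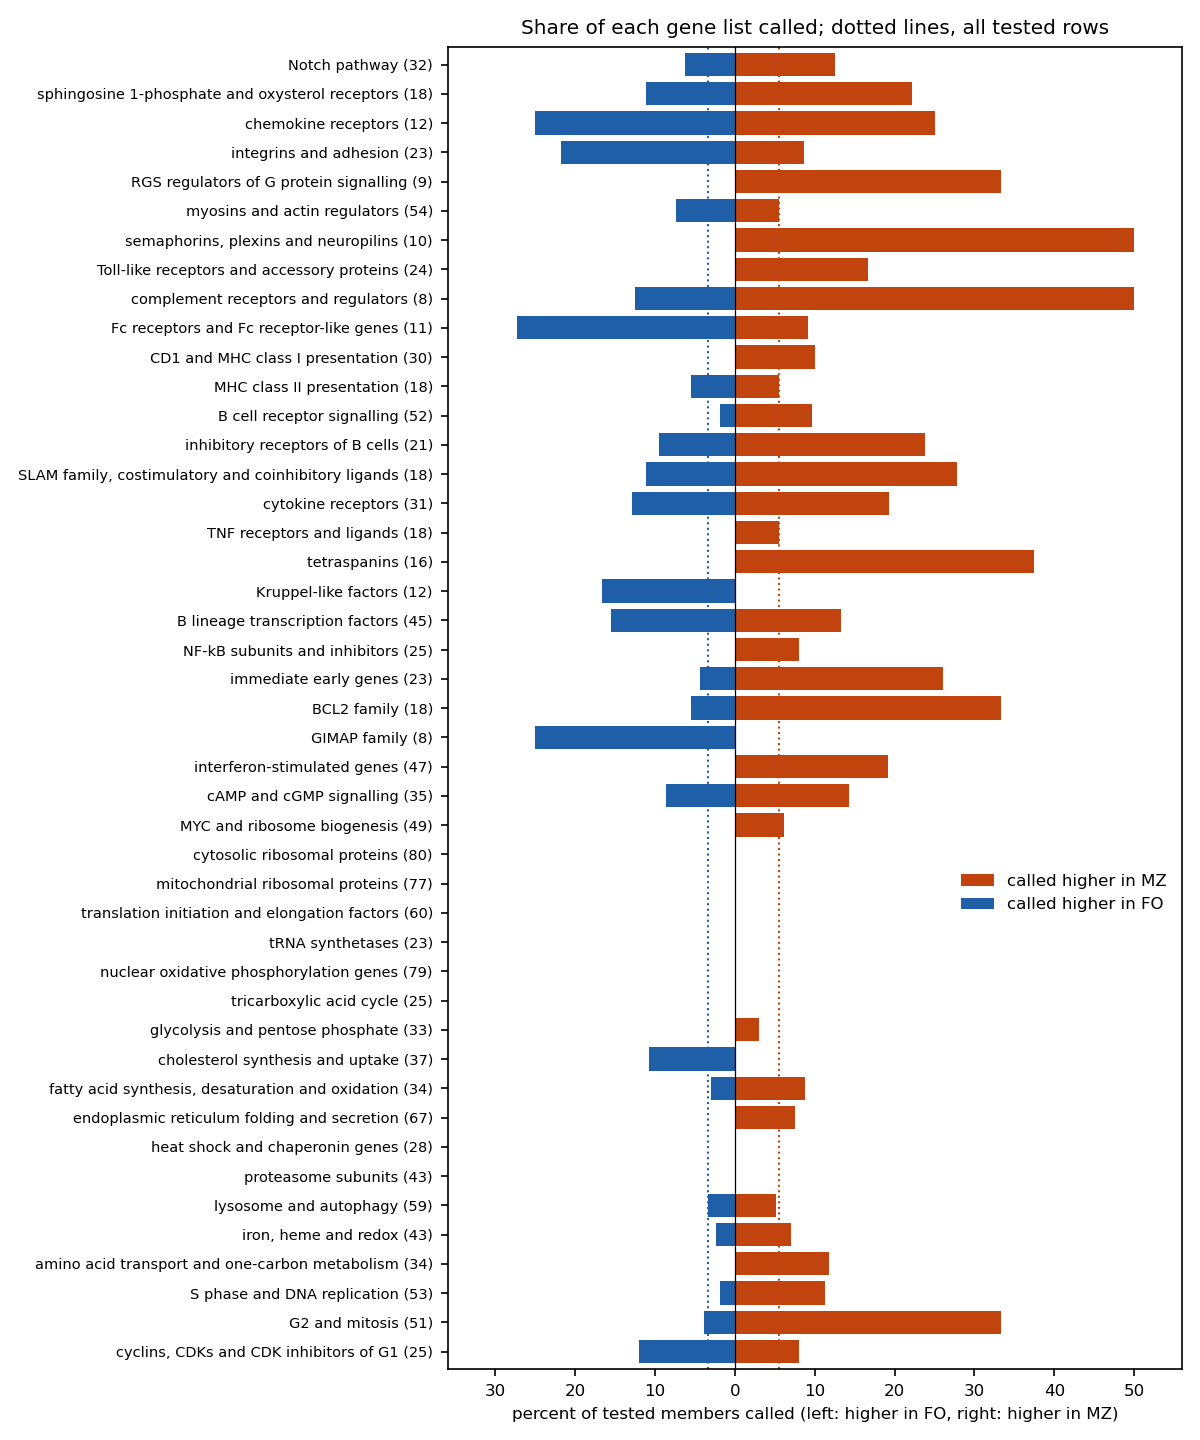
Percent of the tested members of each pathway list (number in brackets) called higher in MZ (orange, to the right) and higher in FO B cells (blue, to the left); the dotted lines mark the 5.54% and 3.39% of all tested rows. Semaphorin, complement, tetraspanin, RGS, BCL2 and mitosis lists reach farthest to the MZ side, and Fc receptor, chemokine receptor, GIMAP and adhesion lists farthest to the FO side. Gate genes, which differ by construction, are counted: Cr2 in the complement and B cell receptor lists and Fcer2a in the Fc receptor list.

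Of 24 Toll-like receptors and accessory proteins tested, 4 were called higher in MZ (16.7% against 5.54% of all rows) and none in FO B cells. Tlr3, the sensor of double-stranded RNA, had 10.9, 8.79 and 15.3 FPKM in MZ and 0.792, 0.991 and 0.874 FPKM in FO B cells. Ly96 (MD-2), the partner of TLR4 in binding lipopolysaccharide, had 19.5, 18.7 and 24.7 FPKM in MZ and 2.901, 3.47 and 3.76 FPKM in FO B cells. Tlr7, a sensor of single-stranded RNA, had 30.6, 22.8 and 39.7 FPKM in MZ and 11.8, 11.1 and 10.96 FPKM in FO B cells. The order of the libraries was the same in the MZ subset for these 3, with replicate 3 highest and replicate 2 lowest, and no FO library reached them. On the log2 scale they were higher by 3.54 ± 0.22, 2.60 ± 0.17 and 1.42 ± 0.21 (adjusted p = 1.39e-05, 1.71e-05 and 0.00129). Cd180, a TLR4 relative of B cells, averaged 287 ± 70.5 FPKM (SD, n = 3) in MZ and 122 ± 4.199 FPKM in FO B cells. Tlr9, the sensor of unmethylated DNA, had 30.7, 23.6 and 42.4 FPKM in MZ and 26.7, 18.8 and 26.1 FPKM in FO B cells, which overlapped (adjusted p = 0.276).

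Complement genes were unevenly split. Of 8 tested, 4 were called higher in MZ and 1 higher in FO B cells. Properdin (Cfp), which stabilises the alternative convertase, had 55.1, 62.2 and 60.7 FPKM in MZ and 5.897, 6.03 and 6.21 FPKM in FO B cells (log2 difference 3.27 ± 0.09, adjusted p = 5.58e-07). Cd59a, an inhibitor of the membrane attack complex, had 2.63, 2.21 and 3.88 FPKM in MZ and 0.123, 0.192 and 0.103 FPKM in FO B cells. Cr2, the receptor for C3d, was a gate marker, and Itgam is a chain of complement receptor 3. In contrast, Cd55, which speeds the decay of convertases, had 297, 271 and 322 FPKM in FO and 56.6, 48.4 and 58.03 FPKM in MZ B cells (log2 difference -2.45 ± 0.13, adjusted p = 5.83e-06). Cd59a and Cd55 thus went in opposite directions, each without overlap. Daf2, a neighbour of Cd55 outside the list, was also called higher in FO B cells. Reads may be shared between Daf2 and Cd55, which was not tested.

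Fc receptors and their relatives gave, of 11 tested, 3 genes called higher in FO B cells and 1 in MZ B cells. Fcrl5, an inhibitory relative of the Fc receptors (chr3:87239807-87261758), had 101, 81.4 and 108 FPKM in MZ and 6.902, 5.16 and 5.29 FPKM in FO B cells (log2 difference 4.04 ± 0.16, adjusted p = 1.34e-06). Fcgrt, the heavy chain of the neonatal Fc receptor that recycles IgG, had 16.9, 17.8 and 20.5 FPKM in FO and 1.87, 2.27 and 1.95 FPKM in MZ B cells (log2 difference -3.12 ± 0.15, adjusted p = 4.04e-06). Faim3, the IgM receptor, averaged 517.3 ± 37.2 FPKM (SD, n = 3) in FO and 256 ± 27.2 FPKM in MZ B cells, and the gate gene Fcer2a was the third. Faim3 fell below the 2-fold limit (1 on the log2 scale) without FO replicate 3 (-0.97), MZ replicate 1 (-0.99) or MZ replicate 2 (-0.96).

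Log2 differences were mostly positive for genes of CD1 and class I presentation and mostly negative for genes of class II presentation. Of 30 CD1 and MHC class I genes tested, 3 were called higher in MZ B cells, or 10% against 5.54% of all rows, and none in FO B cells. A positive log2 difference was seen in 25 of 30, with a median of 0.27, and in 5640 of all 11597 rows. Cd1d1, which presents lipids to NKT cells, had 123, 147 and 89.2 FPKM in MZ and 16.5, 16.6 and 16.2 FPKM in FO B cells, and its near copy Cd1d2, with which it can share reads, had 37.8, 45.2 and 27.6 FPKM and 5.37, 5 and 5.35 FPKM. Psap, the precursor of the saposins that load lipids on CD1d, had 482, 456 and 601 FPKM in MZ and 203, 179.9 and 211 FPKM in FO B cells. On the log2 scale these were higher by 2.83 ± 0.22, 2.76 ± 0.25 and 1.36 ± 0.13 (adjusted p = 3.76e-05, 8.53e-05 and 1.36e-04). Of 18 MHC class II genes tested, 1 was called in each direction, or 5.56%, against 5.54% (MZ) and 3.39% (FO) of all rows. On the adjusted p alone 7 were higher in FO and 1 in MZ B cells, or 38.9% and 5.56% against 12.8% and 14.3% of all rows. Log2 differences lay below 0 in 5929 of all 11597 rows and in 16 of these 18 genes, whose median was -0.41. Their summed FPKM was 14491 to 18727 in MZ and 20306 to 21317 in FO B cells. The called members were H2-Ob, a chain of the peptide exchange inhibitor H2-O (359.9 in FO against 177 FPKM in MZ B cells), and the protease Lgmn (115 in MZ against 55 FPKM in FO B cells). Without MZ replicate 3 both fell below the 2-fold limit, with log2 differences of -0.89 for H2-Ob and 0.98 for Lgmn. The class II chains H2-Aa (3304 in FO against 2412 FPKM in MZ B cells, adjusted p = 0.0826) and H2-Ab1 (1583 against 1249 FPKM, adjusted p = 0.0559) did not pass the test, though neither overlapped. March1, another list member, occurs on repeated rows that disagree in FO replicate 1 only and is uncertain.

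Signalling behind the B cell receptor differed in a few genes. Of 52 genes tested, 5 were called higher in MZ and 1 higher in FO B cells, while on the adjusted p alone 13 were higher in each, or 25% where all rows gave 14.3% and 12.8%. Ptpn22, a phosphatase that restrains antigen receptor signals, had 48.5, 46.7 and 48.3 FPKM in MZ and 8.77, 10.5 and 8.41 FPKM in FO B cells (log2 difference 2.37 ± 0.12, adjusted p = 4.57e-06). The adaptor Dok2 averaged 3.16 against 0.526 FPKM and the tetraspanin Cd81 132 against 62.5 FPKM, and the gate gene Cr2 was called as well. Rasgrp3, which links diacylglycerol to Ras, had 67.3, 64.2 and 66.1 FPKM in FO and 23.1, 19.3 and 20.4 FPKM in MZ B cells (log2 difference -1.65 ± 0.09, adjusted p = 6.29e-06). The receptor chains Cd79a and Cd79b were not called. Cd79b averaged 783 ± 203 FPKM (SD, n = 3) in MZ and 737 ± 116 FPKM in FO B cells.

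Inhibitory receptors and ligands for T cells included some of the larger differences. Of 21 inhibitory receptors tested, 5 were called higher in MZ and 2 higher in FO B cells. Lair1, a collagen receptor, had 5.796, 5.498 and 7.97 FPKM in MZ and 0.325, 0.319 and 0.260 FPKM in FO B cells. Lilrb4 had 33.1, 44.5 and 26.8 FPKM in MZ and 2.41, 3.33 and 1.78 FPKM in FO B cells, and Cd300lf had 18.6, 27.4 and 14.9 FPKM and 1.74, 2.43 and 1.99 FPKM. Within MZ B cells replicate 2 was the highest for Lilrb4 and Cd300lf, and it was also the highest for Cd300lf and Lilrb4 in FO B cells. Log2 differences for these receptors were 4.01 ± 0.18, 3.76 ± 0.39 and 3.21 ± 0.38 (adjusted p = 2.56e-06, 2.14e-04 and 4.22e-04). Gp49a, also called higher in MZ B cells, starts beside Lilrb4 on chromosome 10 (51200438 and 51200446). Reads may be shared between Gp49a and Lilrb4, which was not tested. Cd5 (1.86 against 0.529 FPKM) and the phosphatase Ptprj (94.6 against 40.8 FPKM) were higher in MZ B cells as well. Btla, which binds HVEM, had 260.2, 226 and 236 FPKM in FO and 96.9, 94.4 and 65.5 FPKM in MZ B cells, and Cd200 had 20.8, 16.2 and 24.04 FPKM and 4.15, 3.73 and 4.78 FPKM. Both were called higher in FO B cells, with log2 differences of -1.51 ± 0.22 and -2.23 ± 0.21.

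Of 18 SLAM family and costimulatory genes tested, 5 were called higher in MZ and 2 higher in FO B cells. The CD28 ligand Cd80 had 2.79, 3.14 and 2.22 FPKM in MZ and 0.307, 0.209 and 0.235 FPKM in FO B cells, and the other CD28 ligand Cd86 had 20.4, 27.4 and 23.1 FPKM and 9.23, 11.1 and 9.59 FPKM. The PD-1 ligand Cd274 had 98.5, 124 and 96.2 FPKM in MZ and 32.8, 38 and 31.3 FPKM in FO B cells. All were apart between the subsets, with log2 differences of 3.003 ± 0.22, 1.23 ± 0.12 and 1.63 ± 0.27 (adjusted p = 2.77e-05, 1.37e-04 and 0.00250). Havcr1 (TIM-1) averaged 2.36 against 0.254 FPKM and Pvr 6.24 against 2.25 FPKM. The ligand of the follicular T cell receptor ICOS, Icosl, had 154, 109.6 and 145 FPKM in FO and 61.7, 51.1 and 61.1 FPKM in MZ B cells, and Slamf1 averaged 15.6 against 3.41 FPKM. Both were called higher in FO B cells.

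Cytokine receptors were called in both directions. Of 31 tested, 6 were called higher in MZ and 4 higher in FO B cells. These are 19.4% and 12.9%, against 5.54% and 3.39% of all rows. On the adjusted p alone 8 were higher in MZ and 11 in FO B cells, or 25.8% and 35.5% against 14.3% and 12.8%. The summed FPKM of the list was 771 to 827 in MZ and 986 to 1016 in FO B cells. Csf2rb, the common chain for GM-CSF, IL-3 and IL-5, had 23.5, 24.1 and 23.1 FPKM in MZ and 1.996, 1.93 and 2.03 FPKM in FO B cells, and Il9r had 106, 97.7 and 92.9 FPKM and 12.5, 12.4 and 12.8 FPKM. Il4ra, the chain that binds IL-4, had 72.8, 67.3 and 73.1 FPKM in FO and 19.1, 24.6 and 21.9 FPKM in MZ B cells, and its chromosome 7 neighbour Il21r had 98.8, 105 and 96.9 FPKM and 32.9, 48.2 and 33.7 FPKM. The libraries of a subset kept together in each of these. Log2 differences, MZ minus FO, were 3.50 ± 0.12 for Csf2rb, 2.97 ± 0.23 for Il9r, -1.70 ± 0.10 for Il4ra and -1.41 ± 0.15 for Il21r. The other called genes were Csf2rb2, a near copy of Csf2rb that can share its reads (2.84 against 0.450 FPKM), Il12rb1, Il15ra and Il6st on the MZ side, and Il6ra (8.31 in FO against 3.58 FPKM in MZ B cells) and Il27ra (32.9 in FO against 15.4 FPKM in MZ B cells) on the FO side. Il27ra lost its call without MZ replicate 3 (-0.99). Of 18 TNF receptors and ligands of the list tested, Tnfrsf21 was called (6.95 in MZ against 1.24 FPKM in FO B cells), and Tnfrsf12a, a family member outside the list, was called higher in FO B cells (3.54 against 1.46 FPKM). The BAFF receptor Tnfrsf13c averaged 64.6 ± 13.1 FPKM (SD, n = 3) in MZ and 107 ± 14.4 FPKM in FO B cells, which passed on the adjusted p (0.0173) and not on the fold change.

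Tetraspanins, which organise receptors in the membrane, gave 6 called higher in MZ and none in FO B cells of 16 tested, or 37.5%. Cd9 had 65.2, 77.2 and 79.1 FPKM in MZ and 2.12, 2.12 and 1.71 FPKM in FO B cells. Tspan15 had 11.4, 21.7 and 24.6 FPKM in MZ and 1.03, 1.004 and 0.948 FPKM in FO B cells. No FO library exceeded 2.12 FPKM for either, with log2 differences of 5.15 ± 0.11 and 4.07 ± 0.29 (adjusted p = 1.88e-07 and 2.47e-05). Tspan3, Tspan4, Tspan31 and Cd81 were the others, with Tspan3 at 6.304 against 2.83 FPKM. Tspan3 lost its call without MZ replicate 3 (0.97), and Tspan4 without FO replicate 1 (0.91) or MZ replicate 3 (0.99).

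Transcription factors separated the subsets in both directions. Of 45 factors of the B lineage tested, 6 were called higher in MZ and 7 higher in FO B cells. Bcl6, the repressor that germinal centre B cells need, had 34.2, 28.98 and 34.4 FPKM in FO and 6.84, 8.94 and 7.03 FPKM in MZ B cells. Bach2, a repressor of plasma cell differentiation, had 37.95, 40.2 and 38.6 FPKM in FO and 6.59, 7.62 and 6.03 FPKM in MZ B cells. Prdm1 (Blimp-1), the factor of plasma cells that both restrain, had 3.497, 5.41 and 4.25 FPKM in MZ and 0.376, 0.814 and 0.391 FPKM in FO B cells. No library of one subset entered the range of the other, and the log2 differences were -2.09 ± 0.12, -2.52 ± 0.10 and 2.89 ± 0.30 (adjusted p = 8.45e-06, 1.57e-06 and 1.84e-04). The aryl hydrocarbon receptor Ahr had 14.8, 38.5 and 15.4 FPKM in MZ and 0.731, 3.04 and 0.844 FPKM in FO B cells, and Id2, an inhibitor of E proteins, had 19.2, 30.98 and 26.1 FPKM and 2.61, 7.89 and 3.29 FPKM. Replicate 2 was the highest library of both subsets for Ahr, Id2 and Nfil3 (6.76 against 1.69 FPKM). Bhlhe40 and Bhlhe41 were the other factors higher in MZ B cells, and Bhlhe41 (log2 difference 1.001) fell below the 2-fold limit without FO replicate 1 (0.90), FO replicate 3 (0.98) or MZ replicate 1 (0.97). Satb1, Sox4, Fli1, Lef1 (1.06 in FO against 0.218 FPKM in MZ B cells) and Maf (1.07 in FO against 0.266 FPKM in MZ B cells) were higher in FO B cells. Pax5 and Ebf1, which hold B cell identity, averaged 176 and 59.8 FPKM in MZ and 181 and 61.2 FPKM in FO B cells and were not called.

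Kruppel-like factors had 2 of 12 called, both higher in FO B cells, and a median log2 difference of -0.33. Klf2, which keeps lymphocytes quiescent and recirculating, had 399, 468 and 451 FPKM in FO and 179, 249.2 and 228 FPKM in MZ B cells. Klf3 had 34.7, 27.95 and 42.2 FPKM in FO and 16.01, 13.7 and 21.4 FPKM in MZ B cells. Both lay close to the 2-fold limit, with log2 differences of -1.02 ± 0.14 and -1.04 ± 0.24, and each lost the call in 4 of 18 alternative settings. Klf2 did so without FO replicate 2 (-0.97), FO replicate 3 (-0.996) or MZ replicate 1 (-0.88), and Klf3 without FO replicate 3 (-0.89) or MZ replicate 2 (-0.89). Klf4 averaged 69.2 FPKM in MZ and 54.9 FPKM in FO B cells (adjusted p = 0.387).

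Immediate early genes, which rise within minutes of stimulation, gave 6 called higher in MZ and 1 higher in FO B cells of 23 tested. Atf3 (chr1:192994175-193007219) had 124, 309 and 201 FPKM in MZ and 9.296, 17.7 and 8.795 FPKM in FO B cells. Egr2 had 23.3, 28.6 and 30.4 FPKM in MZ and 4.46, 4.901 and 5.19 FPKM in FO B cells. Myc had 379.8, 390.3 and 518 FPKM in MZ and 121, 141 and 116 FPKM in FO B cells. The subsets were apart for all 3, with log2 differences of 4.11 ± 0.46, 2.47 ± 0.11 and 1.76 ± 0.14 (adjusted p = 2.98e-04, 2.25e-06 and 4.15e-05). Fosl2 had 4.72, 20.5 and 6.91 FPKM in MZ and 0.700, 3.22 and 1.12 FPKM in FO B cells, and Nr4a2 had 16.2, 40.7 and 13.5 FPKM and 4.01, 8.74 and 4.33 FPKM. Replicate 2 was highest in both subsets for Atf3, Fosl2 and Nr4a2. Fosl2 lost the call without FO replicate 1 (2.14, adjusted p = 0.136), FO replicate 3 (2.44, adjusted p = 0.126), MZ replicate 2 (1.98, adjusted p = 0.124) or MZ replicate 3 (2.75, adjusted p = 0.0728), and Nr4a2 without FO replicate 1 (1.73, adjusted p = 0.137), FO replicate 3 (1.79, adjusted p = 0.141), MZ replicate 1 (2.11, adjusted p = 0.0829), MZ replicate 2 (1.45, adjusted p = 0.133) or MZ replicate 3 (2.25, adjusted p = 0.0503). Jun averaged 197 in MZ against 85.5 FPKM in FO B cells. Ier2 was higher in FO B cells (124 against 60.3 FPKM), a call lost without FO replicate 3 (-0.97) or MZ replicate 1 (-0.97). Fos, the classical member, had 323, 315 and 444 FPKM in MZ and 321, 285 and 374 FPKM in FO B cells, which overlapped (adjusted p = 0.709), so that the list did not move as one. Of 25 NF-kB genes tested, 2 were called higher in MZ B cells, Traf1 (33.5 against 11.4 FPKM) and Ikbke (13.95 against 5.58 FPKM), and none in FO B cells. The MZ calls are 8% of the list, against 5.54% of all rows. Without the fold limit 4 of the 25 were higher in MZ and 6 in FO B cells, with a median log2 difference of -0.15. These are 16% and 24%, against 14.3% and 12.8% of all rows. Ikbke lost its call without FO replicate 1 (1.37, adjusted p = 0.0532), FO replicate 2 (1.24, adjusted p = 0.0712), FO replicate 3 (1.26, adjusted p = 0.0790), MZ replicate 1 (1.18, adjusted p = 0.0837) or MZ replicate 2 (1.21, adjusted p = 0.0738).

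**Figure D4:**
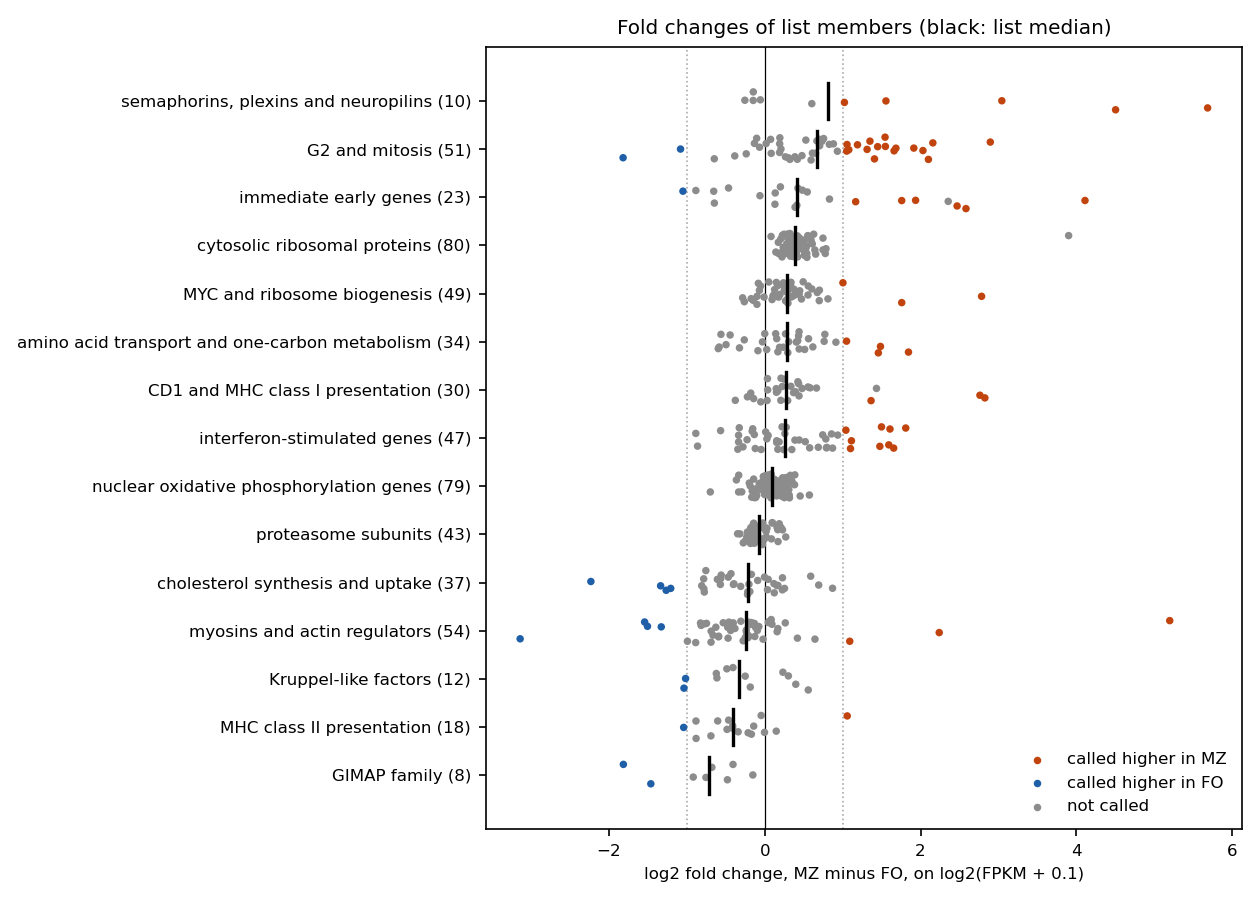
Log2 fold change, MZ minus FO, on log2(FPKM + 0.1), of each tested member of 15 gene lists; orange points are called higher in MZ, blue points higher in FO, grey points not called, black bars the list medians, and dotted lines the 2-fold limits. Members with a repeated symbol are not drawn. Ribosomal protein genes form a narrow band right of 0 (median 0.39), mitosis genes a broad one (median 0.67), and GIMAP genes lie left of 0 (median -0.72).

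Genes that set the balance of cell death included 6 of 18 BCL2 family members called higher in MZ and 1 higher in FO B cells. Bid, which joins death receptors to mitochondria, had 53.9, 42.6 and 66.6 FPKM in MZ and 19.7, 15.9 and 20.1 FPKM in FO B cells (log2 difference 1.53 ± 0.18, adjusted p = 3.67e-04). The survival genes Bcl2a1a, Bcl2a1b and Bcl2a1d, at 43.9, 135 and 68.03 FPKM in MZ against 15.7, 46.7 and 24.1 FPKM in FO B cells, and Bcl2a1c are near-identical copies among which reads can be split, so that their separate values are uncertain. Bbc3 (PUMA), a death-promoting member, was the sixth. Bcl2l15, a related gene outside the list, was also called higher in MZ B cells (1.19 against 0.161 FPKM). Bmf, another death-promoting member, had 13.6, 14.96 and 14.2 FPKM in FO and 3.79, 5.94 and 5.09 FPKM in MZ B cells. Bcl2 averaged 20.7 ± 0.732 FPKM (SD, n = 3) in MZ and 19.2 ± 1.45 FPKM in FO B cells (adjusted p = 0.522). Thus both survival and death genes were among those higher in MZ B cells.

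The GIMAP genes, GTPases of lymphocyte survival that lie in one cluster, had 2 of 8 called higher in FO B cells, and all 8 had a negative log2 difference, with a median of -0.72. Gimap3 had 143, 124 and 140.1 FPKM in FO and 40.3, 43.6 and 32.1 FPKM in MZ B cells. Gimap4 had 193, 196 and 212 FPKM in FO and 74.1, 73.7 and 70.4 FPKM in MZ B cells. Both were apart, with log2 differences of -1.82 ± 0.14 and -1.46 ± 0.08 (adjusted p = 3.43e-05 and 9.56e-06). The summed FPKM of the 8 genes was 536 to 574 in MZ and 939 to 983 in FO B cells.

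Interferon-stimulated genes gave 9 called higher in MZ and none in FO B cells of 47 tested, or 19.1%. On the adjusted p alone 17 were higher in MZ and 4 in FO B cells. The latter are 36.2% and 8.51%, against 14.3% and 12.8% of all rows. The antiviral gene Rsad2 (viperin) had 2.81, 3.49 and 2.72 FPKM in MZ and 0.775, 0.939 and 0.650 FPKM in FO B cells. Isg15, a ubiquitin-like modifier, had 16.1, 16.4 and 23.1 FPKM in MZ and 7.24, 5.42 and 5.303 FPKM in FO B cells. Gbp7, a guanylate-binding protein, had 10.6, 9.29 and 10.6 FPKM in MZ and 3.49, 3.19 and 3.22 FPKM in FO B cells. These were apart by log2 differences of 1.81 ± 0.15, 1.61 ± 0.20 and 1.59 ± 0.09 (adjusted p = 5.51e-05, 5.21e-04 and 8.45e-06). The summed FPKM of the list overlapped, at 1364 to 1559 FPKM in MZ and 1429 to 1627 FPKM in FO B cells, and its most abundant member, Ly6e, averaged 669 FPKM in MZ and 834 FPKM in FO B cells. Irf7, a regulator of the response, averaged 13.9 FPKM in MZ and 17.4 FPKM in FO B cells and was not called. Guanylate-binding proteins had the largest share of calls of the 131 gene name stems with at least 10 rows tested, with 5 of 10 higher in MZ B cells (Gbp8, Gbp7, Gbp2, Gbp10 and Gbp3), and tetraspanins (stem Tspan) came next with 4 of 10.

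Genes of cyclic nucleotide signalling were called in both directions. Of 35 genes tested, 5 were called higher in MZ and 3 higher in FO B cells. These are 14.3% and 8.57%, against 5.54% and 3.39% of all rows. The cAMP-specific phosphodiesterases Pde4d (10.7, 12.9 and 17.2 FPKM in MZ and 0.845, 1.35 and 0.949 FPKM in FO B cells), Pde4a (21.5, 21.3 and 24.6 and 2.61, 2.72 and 2.63 FPKM) and Pde8a (13.1, 13.2 and 14.7 and 2.897, 3.08 and 2.799 FPKM) were higher in MZ B cells. The phosphodiesterase Pde2a, which takes both cAMP and cGMP, was the largest on the FO side, with the values given above. Log2 differences of the MZ enzymes were 3.57 ± 0.22, 3.03 ± 0.09 and 2.19 ± 0.11 (adjusted p = 1.23e-05, 5.58e-07 and 5.57e-06). Prkar2a, a regulatory subunit of protein kinase A (5.003 against 1.58 FPKM), and Grk5 were higher in MZ B cells, and the anchoring protein Akap12 (4.77 against 1.39 FPKM) and Gna15 (5.06 against 1.59 FPKM) were higher in FO B cells.

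Ribosomal protein genes differed by small steps. All 80 cytosolic ribosomal protein genes tested had a positive log2 difference, with a median of 0.39, and 27 of them passed on the adjusted p alone, or 33.8% against 14.3% of all rows, but none reached 2-fold with it. Their summed FPKM was 96035, 92772 and 126026 in MZ and 74404, 77661 and 76976 in FO B cells. MZ replicate 3 was well above the other MZ libraries. The list median ranged from 0.165 (quantile normalization) to 0.46 (without MZ replicate 1) over the alternative settings. Rps27 stood outside the band, with 2890.0, 2802 and 5641 FPKM in MZ and 473, 16.6 and 1736 FPKM in FO B cells, an uneven spread within FO B cells, and was not called (log2 difference 3.90, adjusted p = 0.278; the gene was chosen after its values were seen). Mitochondrial ribosomal proteins (77 genes), translation factors (60), tRNA synthetases (23), nuclear oxidative phosphorylation genes (79), enzymes of the tricarboxylic acid cycle (25), chaperones (28) and proteasome subunits (43) had no gene called, and their medians lay between -0.08 and 0.11, several of which changed sign under another processing. In glycolysis, Hk2 alone of 33 was called (2.59 in MZ against 1.16 FPKM in FO B cells).

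MYC and ribosome biogenesis genes had 3 of 49 called, all higher in MZ B cells, or 6.12%, close to the 5.54% of all rows. On the adjusted p alone 19 were higher in MZ, or 38.8% against 14.3% of all rows, and 1 in FO B cells. Odc1, the first enzyme of polyamine synthesis and a MYC target, had 158, 267 and 199 FPKM in MZ and 26.7, 34.4 and 27.8 FPKM in FO B cells (log2 difference 2.78 ± 0.20, adjusted p = 2.50e-05). Myc itself is given above, and Rrp1b averaged 7.33 against 3.602 FPKM, at the 2-fold limit, which it missed without FO replicate 1 (0.97), MZ replicate 1 (0.9999) or MZ replicate 3 (0.96). Nucleolin (Ncl) had 56.4, 61.4 and 68.2 FPKM in MZ and 44.2, 54.9 and 48.3 FPKM in FO B cells, without overlap but with an adjusted p of 0.128. Amino acid genes had 4 of 34 called higher in MZ and none in FO B cells, which were asparagine synthetase Asns (1.69 against 0.399 FPKM), the transporters Slc43a1 (4.66 against 1.59 FPKM) and Slc7a7 (6.11 against 2.15 FPKM) and the leucine sensor Sesn2 (6.46 against 3.08 FPKM), the last of which lost its call without FO replicate 1 (0.92) or MZ replicate 3 (0.93). On the adjusted p alone 16 were higher in MZ and 3 in FO B cells. These are 47.1% and 8.82%, against 14.3% and 12.8% of all rows.

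Genes of the secretory pathway were called for a few members, not for the whole list. Of 67 genes of endoplasmic reticulum folding and secretion tested, 5 were called higher in MZ and none in FO B cells, or 7.46% against 5.54%. Pdia4, a disulfide isomerase, had 349, 324 and 346 FPKM in MZ and 56.3, 46.4 and 52.7 FPKM in FO B cells. Mzb1, a chaperone of IgM assembly, had 298, 265 and 361 FPKM in MZ and 98.4, 106 and 98.8 FPKM in FO B cells. Derl3, of the degradation pathway, had 6.07, 7.78 and 4.36 FPKM in MZ and 1.06, 1.22 and 1.17 FPKM in FO B cells. No subset entered the range of the other, with log2 differences of 2.71 ± 0.11, 1.59 ± 0.15 and 2.26 ± 0.26 (adjusted p = 1.81e-06, 1.03e-04 and 3.32e-04). Dnajb9 (74.1 against 35.5 FPKM) and Edem1 were the others, and Dnajb9 missed the limit without FO replicate 1 (0.90) or MZ replicate 3 (0.85). The general chaperone Hspa5 (BiP) averaged 266 ± 47.1 FPKM (SD, n = 3) in MZ and 179 ± 26.3 FPKM in FO B cells, under 2-fold. Of 7 plasma cell markers tested, Prdm1, Derl3 and Mzb1 were higher in MZ B cells, while Sdc1 (CD138), the surface marker of plasma cells, had 1.61, 1.67 and 1.22 FPKM in FO and 0.114, 0.289 and 0.129 FPKM in MZ B cells and was called higher in FO B cells, and Tnfrsf17 was under 0.1 FPKM in every library.

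Of 37 cholesterol genes tested, 4 were called higher in FO and none in MZ B cells, and on the adjusted p alone 16 were higher in FO against 3 in MZ B cells, or 43.2% against 12.8% of all rows. Squalene epoxidase Sqle had 5.63, 5.34 and 6.41 FPKM in FO and 2.42, 1.97 and 2.32 FPKM in MZ B cells. The exporter Abca1 had 20.8, 23.95 and 25.6 FPKM in FO and 8.55, 9.39 and 11.2 FPKM in MZ B cells. A gene of synthesis and a gene of export were thus apart in the same direction, with log2 differences of -1.34 ± 0.18 and -1.27 ± 0.17 (adjusted p = 7.89e-04 and 9.11e-04). Mylip, a ubiquitin ligase that limits sterol uptake, averaged 45.1 in FO against 19.9 FPKM in MZ B cells, and lost its call without MZ replicate 2 (-0.96). Fatty acid genes had 3 of 34 higher in MZ B cells, which were Cd36, Scd2 (43.8 against 17.5 FPKM) and the low Fabp5 (0.917 against 0.274 FPKM), and 1 higher in FO B cells, Acsl3 (4.33 against 1.98 FPKM). These are 8.82% and 2.94%, against 5.54% and 3.39% of all rows.

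Of 59 lysosome and autophagy genes tested, 3 were called higher in MZ and 2 higher in FO B cells, shares of 5.08% and 3.39% that are close to those of all rows. By the adjusted p without the fold limit, 13 of the 59 were higher in MZ B cells, as were 23.3% of the iron, heme and redox genes, against 14.3% of all rows. The cathepsin Ctsb averaged 35.2 in MZ against 13.3 FPKM in FO B cells, the channel Mcoln2 14.6 against 5.77 FPKM, and Psap was the third. The proton pump subunit Atp6v0a1 averaged 24.98 in FO against 11.6 FPKM in MZ B cells. Mcoln2 fell short without FO replicate 2 (1.28, adjusted p = 0.0548), FO replicate 3 (1.20, adjusted p = 0.0708), MZ replicate 1 (1.18, adjusted p = 0.0662) or MZ replicate 2 (1.28, adjusted p = 0.0546). Of 43 iron, heme and redox genes, Cybb, the catalytic chain of the phagocyte NADPH oxidase (125 in MZ against 56.5 FPKM in FO B cells), Gsto1 (6.801 against 2.84 FPKM) and Hmox1 (1.64 against 0.751 FPKM) were higher in MZ B cells and Blvrb was higher in FO B cells (45.6 against 18.1 FPKM). Hmox1 fell short without FO replicate 3 (0.84), MZ replicate 1 (0.96) or MZ replicate 2 (0.97).

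Many genes of mitosis were low in both subsets but higher in MZ B cells. Of 51 genes of G2 and mitosis tested, 17 were called higher in MZ and 2 higher in FO B cells, or 33.3% and 3.92%, and the median log2 difference was 0.67. Mki67, the proliferation marker Ki-67, had 5.099, 4.89 and 3.53 FPKM in MZ and 0.517, 0.571 and 0.451 FPKM in FO B cells. Top2a, which untangles chromosomes, had 5.91, 5.93 and 4.27 FPKM in MZ and 1.06, 1.36 and 1.08 FPKM in FO B cells. Nusap1, of the spindle, had 2.57, 2.31 and 2.68 FPKM in MZ and 0.442, 0.590 and 0.438 FPKM in FO B cells. The subsets were apart in each, with log2 differences of 2.90 ± 0.15, 2.101 ± 0.16 and 2.16 ± 0.15 (adjusted p = 5.96e-06, 4.15e-05 and 2.38e-05). Cdca5 averaged 1.39 against 0.266 FPKM and cyclin B1 (Ccnb1) 0.994 against 0.340 FPKM. Of those 17, the largest MZ mean was 5.37 FPKM, for Top2a. The phosphatase Cdc25b, which starts mitosis, had 29.3, 33.1 and 32.4 FPKM in FO and 7.91, 11.04 and 8.001 FPKM in MZ B cells, and the centromere histone Cenpa had 25.1, 35.4 and 25.5 FPKM in FO and 13.4, 20.8 and 8.48 FPKM in MZ B cells. Cenpa lost its call in 10 of 18 alternative settings, among them without FO replicate 1 (-1.17, adjusted p = 0.0893), FO replicate 2 (-0.92), FO replicate 3 (-1.16, adjusted p = 0.0986), MZ replicate 1 (-1.09, adjusted p = 0.115) or MZ replicate 3 (-0.76). These 2 genes had much higher FPKM than the 17, and the summed FPKM of the list, at 192 to 228 in MZ and 199.5 to 220.3 in FO B cells, did not separate the subsets.

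Few replication genes were called. Of 53 genes of S phase tested, 6 were called higher in MZ and 1 higher in FO B cells, with a median log2 difference of 0.02. These are 11.3% and 1.89%, against 5.54% and 3.39% of all rows. The ribonucleotide reductase subunit Rrm2 had 3.19, 3.41 and 2.68 FPKM in MZ and 0.666, 1.08 and 1.02 FPKM in FO B cells, and Dtl had 1.34, 1.74 and 1.12 FPKM and 0.167, 0.284 and 0.164 FPKM. Clspn, Uhrf1 and Chaf1a were also called higher in MZ B cells. Rrm2 and Dtl were apart between the subsets, with log2 differences of 1.67 ± 0.18 and 2.30 ± 0.26. The polymerase subunit Pold1 had 39.8, 33 and 42.4 FPKM in FO and 12.8, 12.9 and 11.3 FPKM in MZ B cells (log2 difference -1.63 ± 0.12, adjusted p = 3.66e-05). The helicase subunits Mcm2 and Mcm3 averaged 10.3 and 12.5 FPKM in MZ and 11.01 and 11.6 FPKM in FO B cells and were not called. Of 25 cyclins, kinases and inhibitors of G1, Tfdp1 (17.1 against 5.73 FPKM) and E2f1 (4.34 against 1.62 FPKM) were higher in MZ B cells. The inhibitor Cdkn1a (p21) had 1.02, 2.05 and 1.29 FPKM in FO and 0.181, 0.475 and 0.103 FPKM in MZ B cells, and E2f2 averaged 11.9 in FO against 5.098 FPKM in MZ B cells. Both, and Cdkn2d, whose symbol occurs on repeated rows, were higher in FO B cells. Ccnd2, a cyclin of G1, had 10.2, 12.1 and 9.23 FPKM in MZ and 4.699, 6.32 and 4.78 FPKM in FO B cells, just under 2-fold (log2 difference 0.99 ± 0.14, adjusted p = 9.61e-04).

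**Figure D5:**
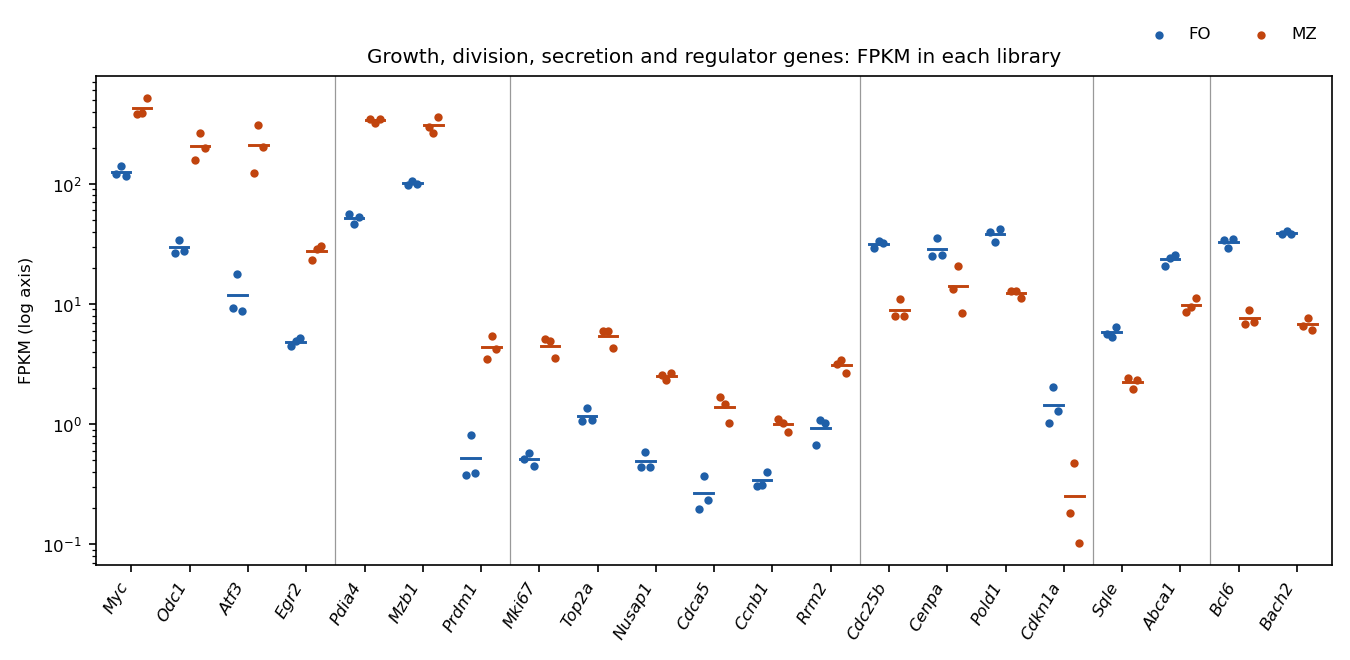
FPKM (log axis) of growth and early response genes, secretory genes with Prdm1, mitosis and replication genes higher in MZ, cell cycle genes higher in FO, cholesterol genes, and the repressors Bcl6 and Bach2, from left to right, in the 3 FO (blue) and 3 MZ (orange) libraries; each dot is a library and each bar the mean of 3. The first 3 groups are higher in MZ B cells, the last 3 higher in FO B cells, and the mitosis genes higher in MZ B cells lie under 6 FPKM in every library.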

How the data were processed

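Splenic B cells of 5 pooled mice per sort were enriched by magnetic negative selection and sorted by flow cytometry, and their mRNA was sequenced. Reads were aligned to the mouse genome mm9 with TopHat2 2.1.0, and the deposited FPKM values, 1 per gene row, were made by the authors with the Cufflinks and Cuffdiff programs. The labels call the reads single-end and not strand-specific and the methods of the study name a stranded kit, so that reads of overlapping genes may not be told apart. Depth was read from the steps between low values of transcripts over 3000 bases, and 71.4% to 78.4% of such values were whole fragment numbers to within 0.1, where chance gives 20%.

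Rows that passed the minimum of 0.5 FPKM (mean of 9 libraries) entered a fit on log2(FPKM + 0.1), a scale that understates the change of low genes, with limma 3.58.1 in R 4.3.3 (eBayes with trend, subset as the only term, 9 libraries sharing 1 estimate of the spread) and Benjamini-Hochberg adjustment. Lists are described by counts, medians and summed FPKM. Tables and plots were made with Python 3.11.15, pandas 2.3.3, numpy 2.4.6, scipy 1.17.1 and matplotlib 3.10.9. The fitting was tested on simulated data. The genes named are, with rows of small RNAs left out, the 12 largest called differences per direction that do not overlap and point the same way on each date, up to 4 called members per direction and the first 2 members of each of 60 gene lists, and called members of the 6 gene name stems with the largest share of calls. Other genes named were chosen after their values were seen. Members and lists were chosen with earlier results of these data known, and no enrichment of a list was tested. The labels carry a date, read here as that of the sort, which pairs the libraries of a number. Same-date deviations correlated at r = 0.0238, 0.0077 and 0.0138 across genes, which are not independent replicates. Positions are from GENCODE M1 on NCBIM37, which is mm9, for 87.3% of the symbols, and promoters are from RefSeq on GRCm38.p6. In all, 271 symbols stand on 776 rows, and for 94 of them the rows differ in FO replicate 1 only. Some genes that the rule selects are not reported here.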

Additional observations from a re-analysis of the deposited data

How the results depend on the processing

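Counts of called rows kept within 1.5 times of 642 in MZ and 393 in FO B cells under most of the 19 alternatives, and no call turned to the opposite direction. With 1 in place of 0.1 added, 406 rows were higher in MZ B cells, of which 404 were among the 642, and 268 in FO B cells, of which 267 were among the 393. On the adjusted p alone, 1658 and 1483 rows were higher in MZ and FO B cells. Leaving out 1 library gave 595 to 637 rows in MZ and 368 to 409 in FO B cells, and with no minimum level 940 and 471 were called. With the sort date as a replicate block, 660 and 409 were called, which include all 642 and 393. Without rows of repeated symbols 639 and 389 were called, and without small RNA rows 641 and 394, alternatives chosen after seeing the data. The share of calls that were higher in MZ B cells ran from 55.6% (quantile normalization) to 66.6% (no minimum), against 62.0%. No scaling moved the median of all rows by 0.1 on the log2 scale. Quantile normalization lowered the median of the cytosolic ribosomal protein list from 0.39 to 0.165. Of the named genes, 100 of 127 higher in MZ, 58 of 74 higher in FO and 63 of 67 not called kept that state in every alternative run on them. The cause of the lost calls was not tested. List medians changed sign under some alternative for chemokine receptors, adhesion, Fc receptors, the SLAM list, fatty acid genes, endoplasmic reticulum, G1, mitochondrial ribosomal proteins, translation factors, tRNA synthetases and the tricarboxylic acid cycle.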

Other observations

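A minority of called genes stood next to a gene called alike, though a larger share than among all placed genes. Next means the next tested gene on the chromosome, at any distance. Of 586 genes higher in MZ B cells with a placed next tested gene, that next gene was also higher in MZ B cells for 13.5%, where 5.83% of all placed genes were, and 10.6% remained after pairs whose symbols share their first 3 letters were left out. The same figures were 12.4%, 3.50% and 12.05% for FO B cells. In mm9, the runs included Serpina3g, Serpina3h, Serpina3i and Serpina3n, protease inhibitors higher in MZ B cells (chr12:105474455-105652539), Naip2, Naip5, Naip6 and Naip1, inflammasome receptors for bacterial proteins (chr13:100914018-101216361), and the transporters Abcb1a, Abcb1b and Abcb4 with Rundc3b (chr5:8490334-8959225). On the FO side they included Hdac10, Mapk12 and Mapk11 (chr15:88953733-88980036) and Nsmce1, Il4ra and Il21r (chr7:132611154-132777084). Members of one family may share reads, and reads of overlapping neighbours may be counted for both, parts that were not tested.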
